A study of Mus musculus with 2 samples.

Results

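Hyaluronan synthesis and binding were followed through 8 genes in single cells of mouse fracture callus. The genes were the hyaluronan synthases Has1, Has2 and Has3, the receptor Cd44, the hyaluronidases Hyal1 and Hyal2, the hyaluronan-depolymerising protein Cemip, and Tnfaip6, which encodes the hyaluronan-binding protein TSG-6. The 8 were picked by symbol from the 32285 genes of each count matrix. All 8 had at least 1 UMI (unique molecular identifier, 1 count per captured RNA molecule) among the kept cells of both libraries.

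Hyaluronan is a long, unbranched sugar polymer of the extracellular matrix. The synthases sit in the plasma membrane, join the activated sugars UDP-glucuronic acid and UDP-N-acetylglucosamine, and extrude the growing chain. In cartilage the chain is bound by aggrecan and stabilised by link proteins, and cells are anchored to it through CD44. Endochondral repair replaces such a cartilage matrix with bone, and chondrocytes mark their passage to hypertrophy by Col10a1, the gene of collagen X.

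Callus was taken from wt mice after a transverse femoral fracture stabilised with a needle in the medullary cavity. Per the study's methods these were adult male C57BL/6J mice. The design covered calluses at 10 days post fracture (dpf, n = 5 mice) and 20 dpf (n = 5 mice), but the labels of the 2 libraries, MGJ and MGJ2, gave neither a day, and the barcodes do not separate mice. The libraries were therefore described one at a time, without a test between them and without replicates, and all intervals cover counting error only.

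Library MGJ held 13320 kept cells and MGJ2 held 7584, with medians of 5657.5 and 4932.5 UMIs per cell. The libraries shared 19 barcodes, 13 of them among kept cells. Clusters of both libraries were named from marker genes, hence the ending "-like". Chondrocyte-like cells numbered 2438 in MGJ and 127 in MGJ2, and Col2a1, the gene of collagen II, stood at 56268 and 46239 CPM in them (CPM, UMIs of a gene per 1000000 UMIs of the cells summed). Fibroblast-like cells numbered 1513 in MGJ and 9 in MGJ2, so fibroblasts were described in MGJ alone. In MGJ, 4826 cells stayed unnamed, 4221 of them in clusters with few UMIs per cell. Col2a1 was also counted in blood cells, which should lack it. After each cell was thinned at random to 2000 UMIs, it was found in 56.3% of immature neutrophil-like cells of MGJ and in 6.59% of those of MGJ2.

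All 8 genes were found by identifier in GENCODE release M21 on GRCm38, and all were protein coding. Among the synthases, Has1 (ENSMUSG00000003665) lies at chr17:17843323-17855205 and Has2 (ENSMUSG00000022367) at chr15:56665627-56694539, both on the minus strand, while Has3 (ENSMUSG00000031910) lies at chr8:106870242-106884566 on the plus strand. Cd44 (ENSMUSG00000005087) is at chr2:102811141-102901665 on the minus strand. Hyal1 (ENSMUSG00000010051) at chr9:107576927-107581710 and Hyal2 (ENSMUSG00000010047) at chr9:107567945-107572779 are neighbours on the plus strand. Cemip (ENSMUSG00000052353) is at chr7:83932857-84086502 on the minus strand, and Tnfaip6 (ENSMUSG00000053475) at chr2:52038009-52056686 on the plus strand. Hyal1 overlaps Naa80 and Hyal3 on the same strand, so its counts are less certain than those of the other genes. The antisense gene Has2os overlaps Has2, and whether strand was used in counting was not given in the sources used here.

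RefSeq promoter windows on GRCm38.p6, from 250 bases before to 50 bases after the annotated start, were held for 6 of the 8 genes. Has2 and Has3 had no entry. The windows of Has1 and Tnfaip6 are shown as the available ones of the genes that lead the results on stages and on blood cells, which use UMI counts and no sequence. Has1 spans chr17:17855139-17855438 on the minus strand, and Tnfaip6 spans chr2:52037863-52038162 on the plus strand. Capitals mark matches to the searched motifs, which were looked for on both strands.

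Has1: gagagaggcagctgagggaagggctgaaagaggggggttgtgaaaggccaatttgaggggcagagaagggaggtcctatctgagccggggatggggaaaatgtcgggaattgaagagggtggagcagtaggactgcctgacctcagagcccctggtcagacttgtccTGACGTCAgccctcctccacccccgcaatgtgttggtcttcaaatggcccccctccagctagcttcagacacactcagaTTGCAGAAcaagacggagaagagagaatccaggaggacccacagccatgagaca
Tnfaip6: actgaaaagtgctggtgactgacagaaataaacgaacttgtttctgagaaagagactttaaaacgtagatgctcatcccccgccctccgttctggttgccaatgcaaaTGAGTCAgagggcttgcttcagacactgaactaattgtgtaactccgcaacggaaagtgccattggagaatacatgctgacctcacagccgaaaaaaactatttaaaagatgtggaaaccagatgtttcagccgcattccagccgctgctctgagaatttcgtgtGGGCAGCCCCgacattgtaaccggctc

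The Has1 window held the palindrome TGACGTCA, the consensus of cyclic AMP response elements, at positions -83 to -76 from the start. This motif was added to the search after the sequence had been read, and 1.79% of 32851 promoter windows held it. Has1 also held a match to TTGCNNAA, a core of C/EBP sites, at -4 to 3, a motif found in 10.8% of windows. The Tnfaip6 window held TGANTCA, the AP-1 core, at -142 to -136, against 7.81% of windows, and a loose form of the NF-kappa-B site (GGG, any 5 bases, CC) at 23 to 32, against 50.8%. The motif TATAAA, in 13.6% of windows, was found in neither and lay at -29 to -24 of Cemip. A match describes the letters and shows no binding.

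Has1 and Has2 RNA was concentrated in chondrocyte-like and stromal cells. In MGJ, fibroblast-like cells held Has1 at 143 CPM (95% interval 138 to 147), chondrocyte-like cells at 128 (125 to 132) and pericyte or smooth muscle-like cells at 74.7 (61.0 to 90.6). The other 14 classes of at least 50 cells stood at 9.26 or below. For Has2, chondrocyte-like cells came first at 91.3 CPM (88.8 to 94.0), followed by fibroblast-like cells at 73.4 (70.2 to 76.7) and pericyte or smooth muscle-like cells at 40.6 (30.7 to 52.8). The other classes lay between 0 and 5.52. Orders here cover classes of at least 50 cells. Neighbours in the order were taken as told apart where the exact 95% interval of their ratio left out 1. The top 3 classes were told apart for both genes, and below them neighbours in the order were not. Per 1000 UMIs of Col2a1 in the same cells, pericyte or smooth muscle-like cells had 18.7 UMIs of Has1 and 10.2 of Has2. Endothelial-like cells had 17.8 and 10.9, and immature neutrophil-like cells 8.78 and 1.60. How far the level in pericyte or smooth muscle-like cells came from RNA of other cells was not tested. Of all UMIs in MGJ, chondrocyte-like cells held 39.4% and fibroblast-like cells 20.4%, compared with 55.2% and 31.7% of those of Has1 and 60.9% and 25.3% of those of Has2.

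In MGJ2, where chondrocyte-like cells held 6.38% of the UMIs, they held 60.2% of those of Has1 and 78.2% of those of Has2. Their levels were 45.3 CPM (38.7 to 52.7) and 59.9 CPM (52.3 to 68.3). Endothelial-like cells followed with 2 UMIs of Has1 and 3 of Has2. The synthase UMIs of this library came from few cells. The 10 cells with the most UMIs held 73.8% of the Has1 and 66.7% of the Has2 counted in its chondrocyte-like cells, compared with 8.47% and 5.82% in MGJ. One cell alone held 41 UMIs of Has1, and one held 57 of Has2.

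Has3 was barely detected. It had 17 UMIs in MGJ and 18 in MGJ2. The latter included 9 in natural killer-like cells, 3.09 CPM (1.41 to 5.86), and none in the 127 chondrocyte-like cells, which allows up to 0.810 CPM at a floor of 3 counts. Next, detection at equal depth was compared with neutrophil-like cells, which should lack the synthases. At 2000 UMIs, Has1 was found in 15.5% (14.0 to 17.0) of 2400 chondrocyte-like and 19.0% (17.1 to 21.1) of 1493 fibroblast-like cells of MGJ, but in 3 of 565 neutrophil-like and immature neutrophil-like cells (0.531%, 0.110 to 1.54). The median depths before thinning were 21151.5, 16713 and 4434 UMIs. For Has2 the shares were 14.3%, 10.98% and 0 of 565, which allows up to 0.531% at a floor of 3 counts (exact upper limit 0.651%). Too shallow for this depth were 38, 20 and 86 cells. Without thinning, Has1 was in 43.9%, 51.4% and 1.84% of the cells and Has2 in 53.1%, 44.6% and 0.461%. Set against cartilage RNA in the same cells, Has1 had 2.28 UMIs per 1000 of Col2a1 in chondrocyte-like cells and 33.1 in fibroblast-like cells, so the 2 classes did not hold the pair in 1 ratio.

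Cd44, which encodes the main cell-surface receptor, followed a different order. In MGJ it was highest in the 107 neutrophil-like cells at 2283 CPM (2095 to 2484), then in monocyte-like cells at 1377 and macrophage-like cells at 1020.4. Fibroblast-like cells came next at 779 CPM (769 to 790.0), and chondrocyte-like cells stood at 258 (254 to 263). The 4221 unnamed cells of MGJ in clusters with few UMIs scored highest for neutrophil markers and lie outside this order. They held 17.8% of the Cd44 UMIs of MGJ and 6.37% of all its UMIs. In MGJ2, neutrophil-like cells again came first at 3569 CPM (3517 to 3622), followed by monocyte-like cells at 2285. Plasmacytoid dendritic, immature neutrophil and dendritic cell-like cells lay between 941 and 980.1 and were not told apart. Chondrocyte-like cells of MGJ2 held 291 CPM (274 to 309).

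The hyaluronidases were highest outside the chondrocyte-like cells. Hyal1, a lysosomal hyaluronidase, was highest in osteoclast-like cells of MGJ at 34.0 CPM (27.2 to 42.0) and in macrophage-like cells at 29.2 (25.9 to 32.8), which were not told apart. Macrophage-like cells held 41.7% of its UMIs. In MGJ2, osteoclast-like cells also came first at 27.0 CPM (20.6 to 34.9), ahead of endothelial-like cells at 9.23, which had 4 UMIs. Hyal2, which encodes a hyaluronidase tethered to the cell surface, was highest in endothelial-like cells, at 45.3 CPM (37.7 to 53.9) in MGJ and 57.7 (37.3 to 85.2) in MGJ2. Osteoclast-like cells were next in both, at 35.6 and 26.1 CPM. In MGJ these 2 classes were not told apart, and in MGJ2 they were.

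Cemip and Tnfaip6 were highest in fibroblast-like cells in MGJ. Cemip reached 72.5 CPM (69.3 to 75.8) in fibroblast-like cells, which held 58.4% of its UMIs, and 19.5 (18.3 to 20.7) in chondrocyte-like cells. The next class, erythroid-like cells at 13.8 CPM from 5 UMIs, was not told from the latter. Tnfaip6 stood at 858 CPM (847 to 869) in fibroblast-like, 531 (525 to 537) in chondrocyte-like and 202 (179 to 227) in pericyte or smooth muscle-like cells, each told from the next. Per 1000 UMIs of Col2a1, Tnfaip6 had 50.4 UMIs in pericyte or smooth muscle-like, 49.7 in macrophage-like and 151 in endothelial-like cells. Among classes of at least 50 cells in MGJ2, chondrocyte-like cells led for both genes, with Cemip at 27.3 CPM (22.2 to 33.1) and Tnfaip6 at 366 (347 to 386). The 20 marrow stromal-like cells of MGJ2 held Cemip at 39.2 CPM (17.9 to 74.3) from 9 UMIs. Of the 230 Cemip UMIs of MGJ2, 115 lay in unnamed cells, a group that includes chondrocyte sub-clusters led by markers of other classes.

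**Figure D1:**
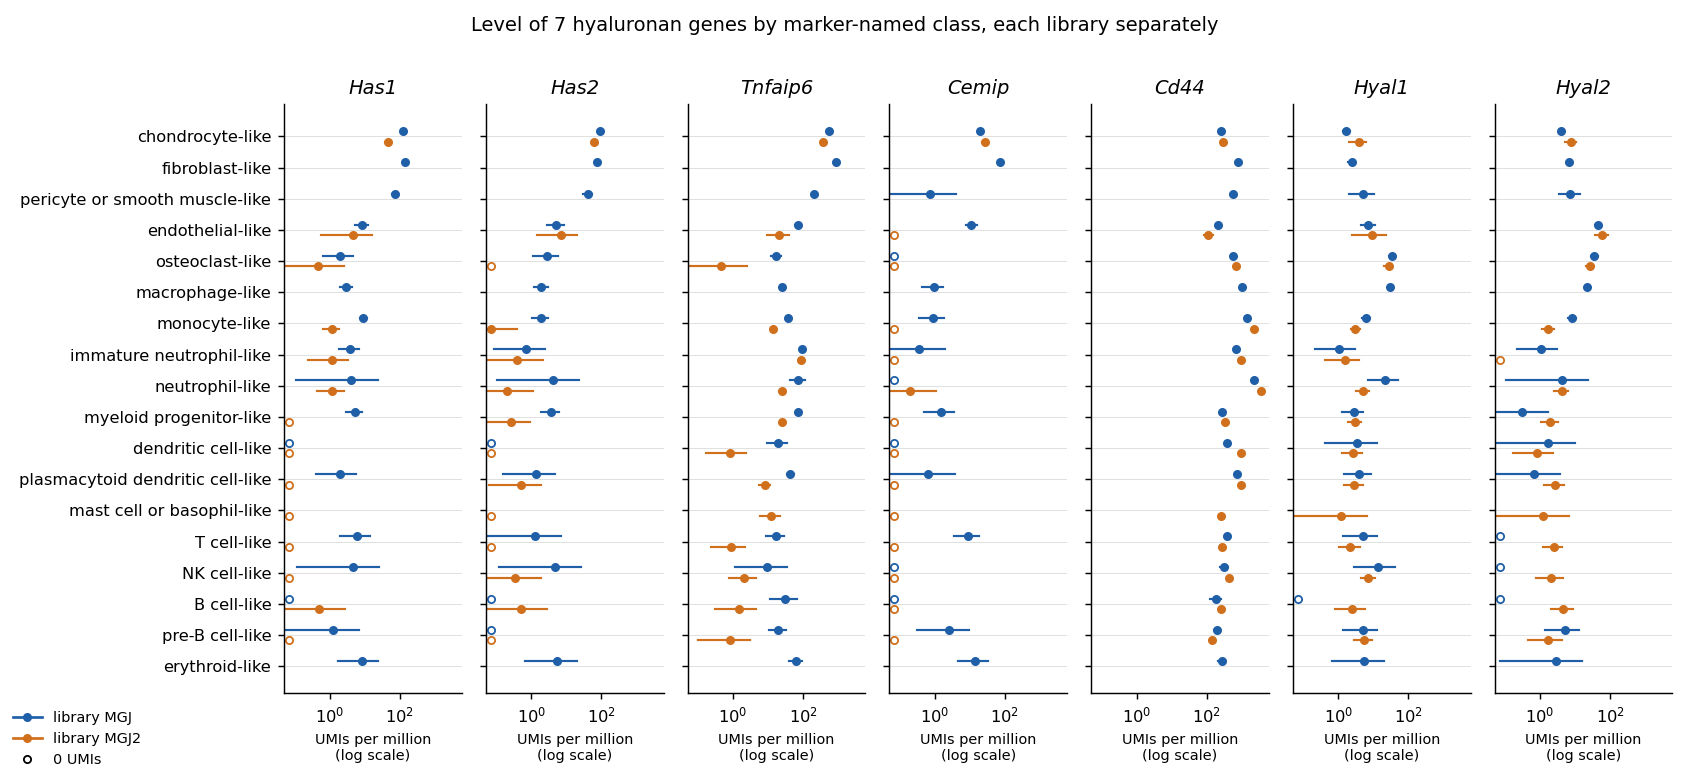
Level of 7 of the genes (CPM, horizontal log axis) in each named class of at least 50 cells, in blue for MGJ and orange for MGJ2, with 95% Poisson intervals as lines and open circles for 0 UMIs. Has1, Has2 and Tnfaip6 are high in the chondrocyte-like, fibroblast-like and pericyte rows and Cemip in the chondrocyte-like and fibroblast-like rows, while Cd44 peaks in neutrophil-like cells and Hyal2 in endothelial-like cells.

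Tnfaip6 was also detected in immature neutrophil-like cells. In MGJ2 these cells held 86.4 CPM (75.5 to 98.4, 227 UMIs), second to chondrocyte-like cells. Myeloid progenitor-like cells stood at 24.9 (21.5 to 28.7) and neutrophil-like cells at 24.7 (20.6 to 29.4). T cell-like cells held 0.882 CPM from 4 UMIs. At 2000 UMIs per cell, Tnfaip6 was found in 16.5% (12.7 to 20.9) of 334 immature neutrophil-like cells and 6.74% of myeloid progenitor-like cells, but in 0.256% of T cell-like cells. Without thinning the shares were 32.8%, 34.9% and 0.495%. Col2a1 was in 6.59%, 3.19% and 8.97% of the thinned cells of these classes. Per 1000 UMIs of Col2a1, Tnfaip6 had 2142 UMIs in immature neutrophil-like cells, 7.92 in chondrocyte-like cells and 17.8 in T cell-like cells. In MGJ, immature neutrophil-like cells held 90.2 CPM (79.6 to 102), below the 3 stromal and chondrocyte classes and not told from neutrophil-like cells at 71.5, and there Col2a1 was in 56.3% of them.

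**Figure D2:**
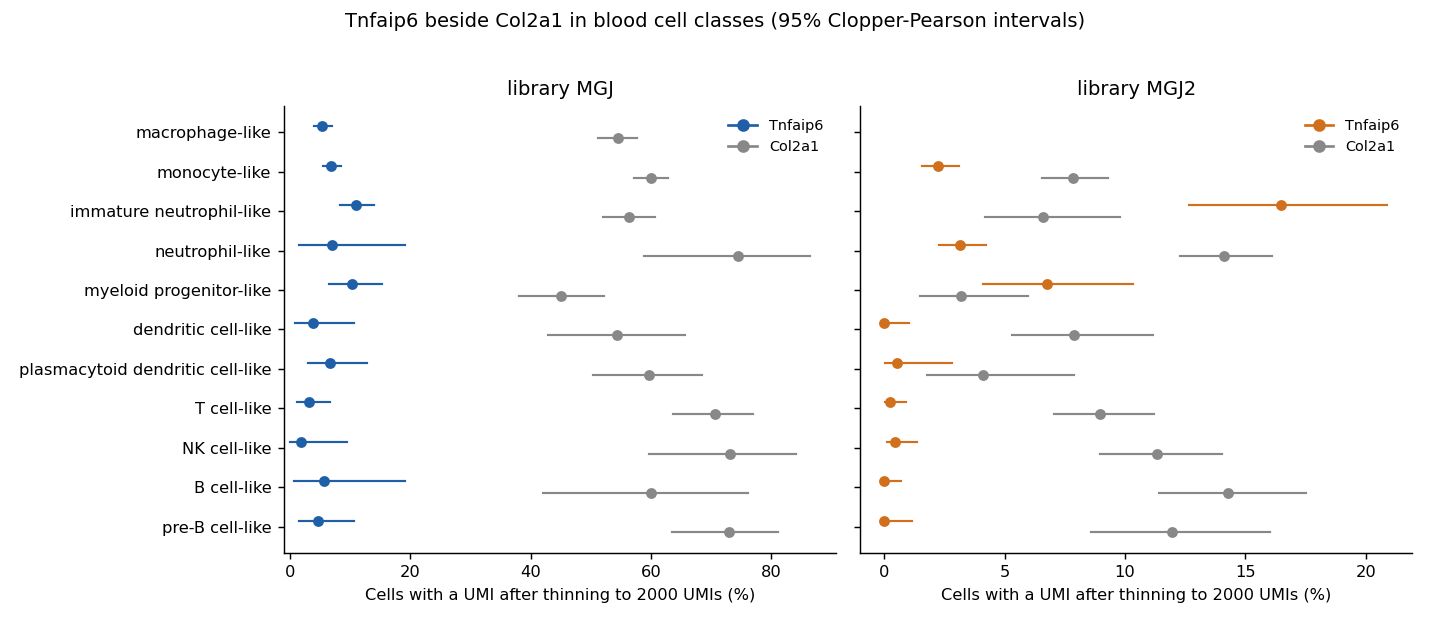
Share of cells (percent) with a UMI of Tnfaip6 and of Col2a1 in blood cell classes after thinning to 2000 UMIs per cell, for each library, with 95% Clopper-Pearson intervals. In MGJ2, Tnfaip6 is in 16.5% of immature neutrophil-like cells while Col2a1 is in 6.59%, and in T cell-like cells the order is the reverse, 0.256% and 8.97%.

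To place the genes against the rest of the transcriptome, chondrocyte-like cells were compared with all other kept cells of the same library. A gene with at least 20 UMIs over both sets was taken as tested, and as different when its ratio was at least 2-fold and the exact 95% interval left out 1. In MGJ, 1 of 7 tested members was higher, where 13.5% of 16495 genes were, and 3 were lower, where 26.1% of genes were. Has2 was the higher one, at 2.39 times (2.28 to 2.50). Has1 at 1.89 times (1.82 to 1.96) missed the 2-fold mark, as did Tnfaip6 at 1.44 and Cemip at 0.670. Has1 passed it at 10% mitochondrial UMIs, with doublet calls kept, at clustering resolution 2, with the set-aside sub-clusters kept and with every cell weighted equally, where it reached 3.71 and Tnfaip6 2.76. Cd44 was lower at 0.300 times (0.294 to 0.305), Hyal1 at 0.225 (0.178 to 0.282) and Hyal2 at 0.401 (0.342 to 0.468). The median ratio of the members was 0.670, compared with 0.874 over all genes tested.

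In MGJ2, 4 of 7 tested members were higher in chondrocyte-like cells, where 21% of 14715 genes were, and 1 was lower, where 27.1% were. Has2 stood at 52.6 times the level of other cells (39.5 to 70.9), Has1 at 22.2 (17.4 to 28.5), Tnfaip6 at 17.3 (16.0 to 18.8) and Cemip at 11.5 (8.77 to 15.03). Cd44 was lower at 0.229 times (0.215 to 0.243). Hyal2 at 1.92 (1.25 to 2.86) and Hyal1 at 0.871 (0.469 to 1.49) did not pass. The median over members was 11.5, compared with 0.797 over all genes tested. Most of the remaining cells of MGJ2 were blood cells and 9 were fibroblast-like, and how far this makeup set the ratios was not tested.

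Next, chondrocyte-like cells were staged by Col10a1, with low stage below 1000 CPM in the cell, moderate below 10000 and high from there on. MGJ held 1601, 335 and 502 cells in these stages, and MGJ2 held 50, 26 and 51. Near the lower limit, within 1.25 times, lay 68 cells of MGJ and 5 of MGJ2, and near the upper limit 78 and 6. Both synthases were lower at higher Col10a1. In MGJ, Has1 went from 161 CPM (156 to 165) through 116 (108 to 123) to 34.8 (31.3 to 38.5), and Has2 from 113 (109 to 116) through 68.4 (62.8 to 74.5) to 39.7 (35.9 to 43.7). In MGJ2, Has1 went from 102 CPM (86.1 to 121) through 28.6 (17.7 to 43.7) to 3.77 (1.38 to 8.20), and Has2 from 112 (95.4 to 132) through 64.0 (47.1 to 85.2) to 12.6 (7.67 to 19.4). Few cells held most synthase UMIs of the chondrocyte-like cells of MGJ2, a spread between cells that these intervals leave out. The intervals of all stages cover counting error only, and the share of all genes that differed between stages is given next.

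Over all genes, high-stage cells were compared with low-stage cells. In MGJ, 2 of 7 tested members were lower, where 10.5% of 13691 genes were, and 1 was higher, where 9.41% were. Has1 had a ratio of 0.216 (0.194 to 0.241) and Has2 of 0.352 (0.317 to 0.389). Hyal1 was higher at 2.04 times (1.20 to 3.42), from 26 and 41 UMIs, and this call was lost in several alternative analyses. Tnfaip6 at 0.547 and Cd44 at 0.770 did not reach 2-fold. In MGJ2, 3 of 6 tested members were lower, where 10.3% of 8347 genes were, and none was higher, where 7.9% were. These were Has1 at 0.0368 times (0.0133 to 0.0822), Has2 at 0.112 (0.0664 to 0.179) and Cemip at 0.416 (0.248 to 0.683). The call of Cemip was lost at a minimum of 500 genes, with doublet calls kept, at clustering resolution 2 and with the set-aside sub-clusters kept. The median ratio over members was 0.770 in MGJ and 0.684 in MGJ2, compared with 0.979 and 0.967 over all genes tested.

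Shares of cells had the same order for both genes in MGJ and for Has1 in MGJ2. At 2000 UMIs, Has1 was detected in 19.0% (17.0 to 21.0) of low-stage and 5.09% (3.32 to 7.42) of high-stage cells of MGJ, and Has2 in 17.4% (15.5 to 19.3) and 5.09% (3.32 to 7.42). In MGJ2, Has1 was in 9 of 49 low-stage cells (18.4%, 8.76 to 32.0) and in none of 51 high-stage cells, which allows up to 5.88% at a floor of 3 counts (exact upper limit 6.98%). Has2 was in 2 of 49 and none of 51, a difference not detectable at this depth. Without thinning, Has1 was in 51.2% of low-stage and 23.9% of high-stage cells of MGJ, and in 20 of 50 and 5 of 51 in MGJ2.

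Next, MGJ was divided into 7 finer ranges of Col10a1. Has1 stood at 173 CPM in the 846 cells below 100 CPM of Col10a1, at 142 from 100 to below 300 and at 161 from 300 to below 1000. It was 126 and 107 in the ranges up to 10000, then 46.2 below 30000 and 17.2 (13.5 to 21.7) in the 221 cells above. Has2 went from 122 CPM through 111, 81.8, 74.5, 62.9 and 47.5 to 27.7 (22.8 to 33.2). Cemip was highest in the last range, at 32.3 CPM (27.0 to 38.2), after 22.6 in the first and 9.96 (7.15 to 13.5) from 3000 to below 10000. In MGJ2, where 3 of the ranges held enough cells, Cemip went the other way, from 42.7 CPM (30.2 to 58.6) in 35 cells of the first range to 19.6 from 10000 to below 30000 and 12.9 (6.68 to 22.6) in the 30 cells above.

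**Figure D3:**
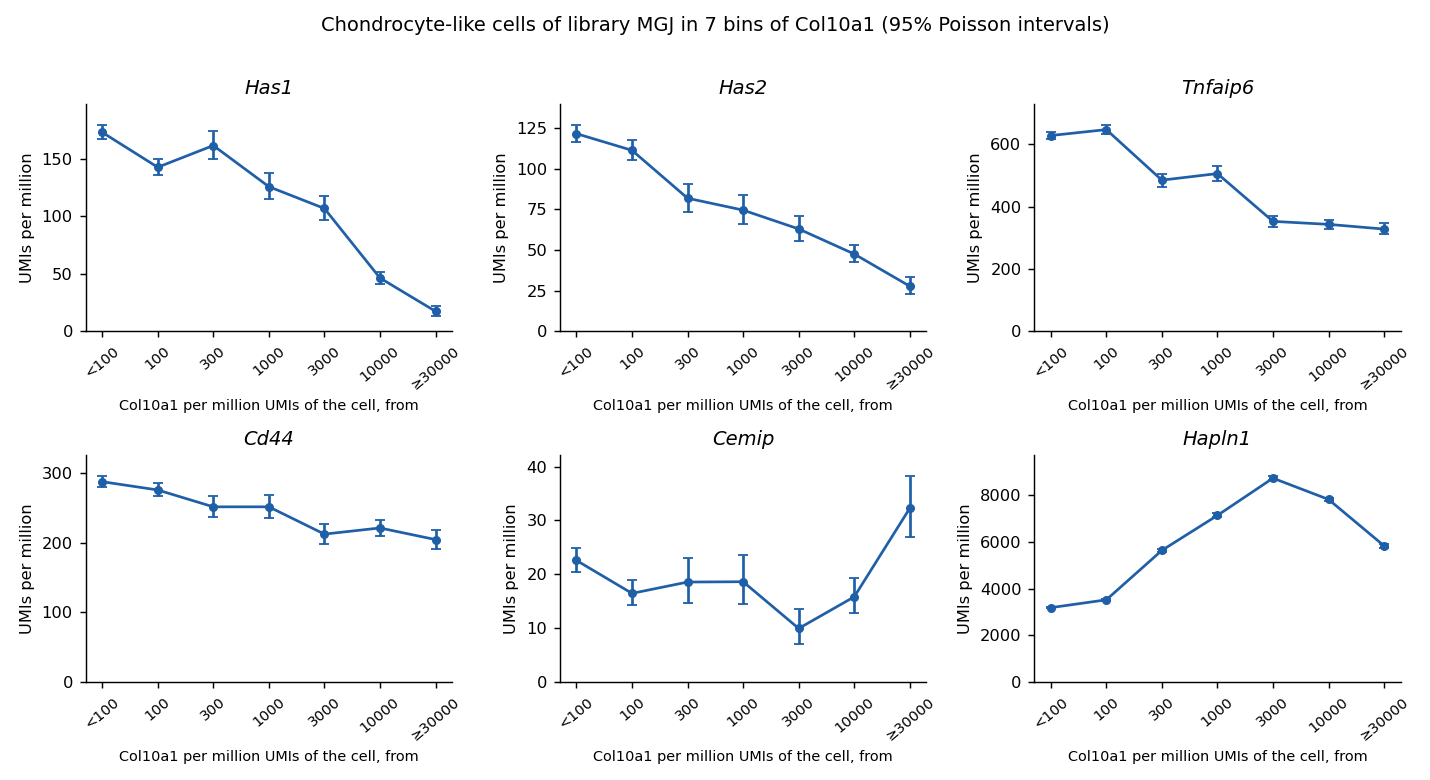
Level (CPM, vertical axis) of 5 of the genes and of the link protein gene Hapln1 in chondrocyte-like cells of MGJ, in 7 ranges of Col10a1 CPM per cell named by their lower limit, with 95% Poisson intervals. Has1 goes from 173 to 17.2 CPM and Has2 from 122 to 27.7, and Cemip is at 32.3 in the last range.

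Clustering of the chondrocyte-like clusters without the 8 genes placed most synthase UMIs of the chondrocyte-like cells of MGJ in 1 population, 4927 of 6667 for Has1 and 3340 of 4740 for Has2. The same population held 22941942 of the 51895906 UMIs of all genes in these cells. Sub-cluster 1 (1055 cells of MGJ, 20 of MGJ2) was led by Penk, the proenkephalin gene, Tfpi2, an inhibitor of serine proteases, and Cxcl5, a chemokine for neutrophils. In MGJ it held Has1 at 215 CPM (209 to 221), Has2 at 146 (141 to 151) and Tnfaip6 at 749 (738 to 760.0). Sub-cluster 2, with Col10a1 among its leading genes, held 46.5, 38.9 and 348 CPM. Sub-cluster 3, led by Espn and with Car9, a carbonic anhydrase, among its leading genes, held 88.3, 51.1 and 346. Sub-cluster 4, with Slc40a1, the iron exporter ferroportin, and Runx1t1 among its leading genes, was the lowest, at 16.1, 25.1 and 151, with Cd44 at 63.2 CPM (55.4 to 71.9).

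Sub-cluster 7, led by the cell-cycle genes Ube2c, Pbk and Birc5, held Has1 at 85.9 and Has2 at 99.0 CPM. Sub-cluster 9, 50 cells led by the acute-phase genes Saa1, Hp and Saa3, held Has1 at 37.2 and Has2 at 45.8, and its Cemip level of 62.0 CPM (47.8 to 79.0) was the highest of the chondrocyte sub-clusters of MGJ. Sub-cluster 6 (154 cells of MGJ), led by Ifitm5 and with the osteocalcin gene Bglap among its leading genes, was set aside as led by osteoblast markers. It held Has1 at 200.4 CPM (183 to 219) and Has2 at 165 (149 to 182). In MGJ2, the 20 cells of sub-cluster 1 held Has1 at 152 CPM (124 to 184) and Has2 at 229 (195 to 268), against 19.0 and 23.3 in sub-cluster 2 and 23.3 and 20.4 in sub-cluster 4.

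The stages were next compared without sub-cluster 1, which had Has1 itself among its leading genes. Without it, Has1 in MGJ stood at 71.6, 80.3 and 33.6 CPM in low, moderate and high stage, and Has2 at 57.2, 52.9 and 34.7. The high over low ratio of Has1 was then 0.469 (0.413 to 0.532) and still past 2-fold, and that of Has2 was 0.606 (0.532 to 0.690) and no longer so. Within sub-cluster 3 alone, Has1 had a ratio of 0.393 (0.266 to 0.563) and Has2 of 0.815 (0.558 to 1.16). In MGJ2 without sub-cluster 1, Has1 went from 52.3 CPM in 33 low-stage cells to 3.24 in 50 high-stage cells, a ratio of 0.0620 (0.0192 to 0.156), and Has2 from 24.3 to 9.08, a ratio of 0.374 (0.175 to 0.778). There Cd44 was 3.17 times (2.54 to 4.0) and Tnfaip6 2.39 times (1.99 to 2.89) higher in high stage. With all chondrocyte-like cells of MGJ2 neither passed 2-fold, although Cd44 did with every cell weighted equally. In MGJ, the highest ratio over all alternatives was 1.04 for Cd44 and 0.860 for Tnfaip6. The comparison without sub-cluster 1 was added after the values were seen.

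**Figure D4:**
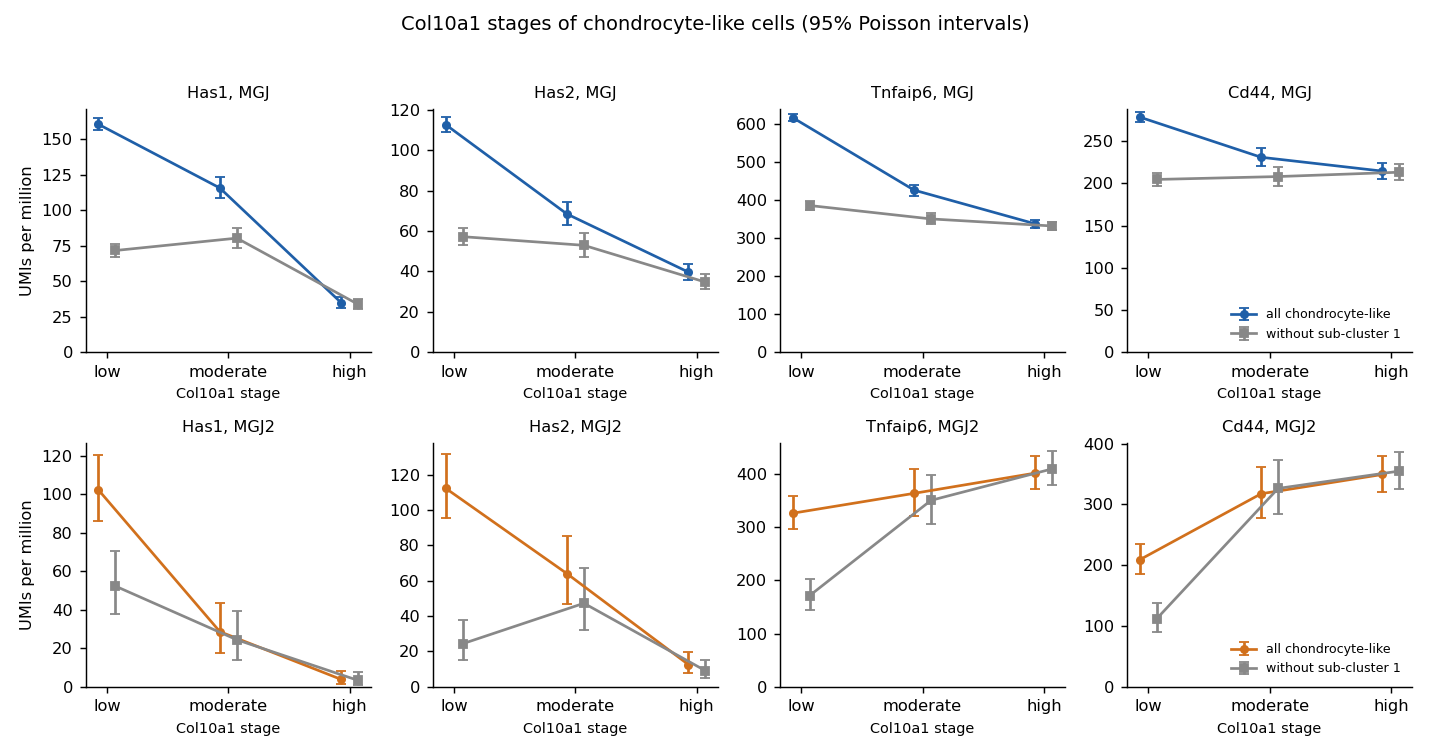
Levels of Has1, Has2, Tnfaip6 and Cd44 (CPM) in low, moderate and high Col10a1 stage, in rows for MGJ and MGJ2, with all chondrocyte-like cells in colour, without sub-cluster 1 in grey, and 95% Poisson intervals. Has1 of MGJ ends at 34.8 CPM in high stage with and 33.6 without sub-cluster 1, and starts at 161 with and 71.6 without.

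Fibroblast-like cells of MGJ were compared with all other cells. Of 7 tested members 2 were higher, where 13.3% of 16495 genes were, and 1 was lower, where 17.2% were. Cemip was 5.48 times higher (5.11 to 5.87) and Tnfaip6 2.64 times (2.60 to 2.69), while Hyal1 was lower at 0.400 times (0.305 to 0.519). Has1 at 1.81 and Has2 at 1.32 times did not pass. Both passed at clustering resolution 2, where the class held 638 cells, and with every cell weighted equally. Has1 also passed with cells named one by one, where the class held 504 cells. Directly against chondrocyte-like cells, 2 of 7 were higher, where 21.8% of 15112 genes were, and none was lower, where 11% were. These were Cemip at 3.72 times (3.44 to 4.01) and Cd44 at 3.02 times (2.95 to 3.08). The synthases differed less, Has1 at 1.11 times (1.07 to 1.16) and Has2 at 0.804 (0.762 to 0.847). The median over members was 1.33 against other cells and 1.62 against chondrocyte-like cells, compared with 1.05 and 1.20 over all genes tested.

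Similarly, the fibroblast-like cells were not uniform. Sub-cluster 2 (256 cells) was led by Vtn, which encodes vitronectin, and by the fibroblast genes Pi16, Sfrp4 and Clec3b. It held Has1 at 407 CPM (388 to 428), Has2 at 156 (144 to 169) and Tnfaip6 at 1709 (1669 to 1751), the highest of the fibroblast sub-clusters. Sub-cluster 1 (409 cells), led by Kera, Cilp2 and the tenocyte gene Tnmd, held 54.2, 40.1 and 652 CPM. Sub-cluster 3 (235 cells), led by the stromelysin gene Mmp10 and the BMP antagonist Grem1, had the highest Cemip, at 162 CPM (150 to 174). Sub-cluster 6 (128 cells), with the lubricin gene Prg4 among its leading genes, had the highest Cd44 of the fibroblast sub-clusters, at 1370.2 CPM (1323 to 1419), and Tnfaip6 at 1129. Sub-clusters 4, 5 and 8 were led by markers of chondrocytes or blood cells but stayed in the fibroblast-like class. Without them, the same 3 members passed 2-fold against other cells, Cemip at 6.13 times, Tnfaip6 at 2.84 and Hyal1 at 0.317.

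**Figure D5:**
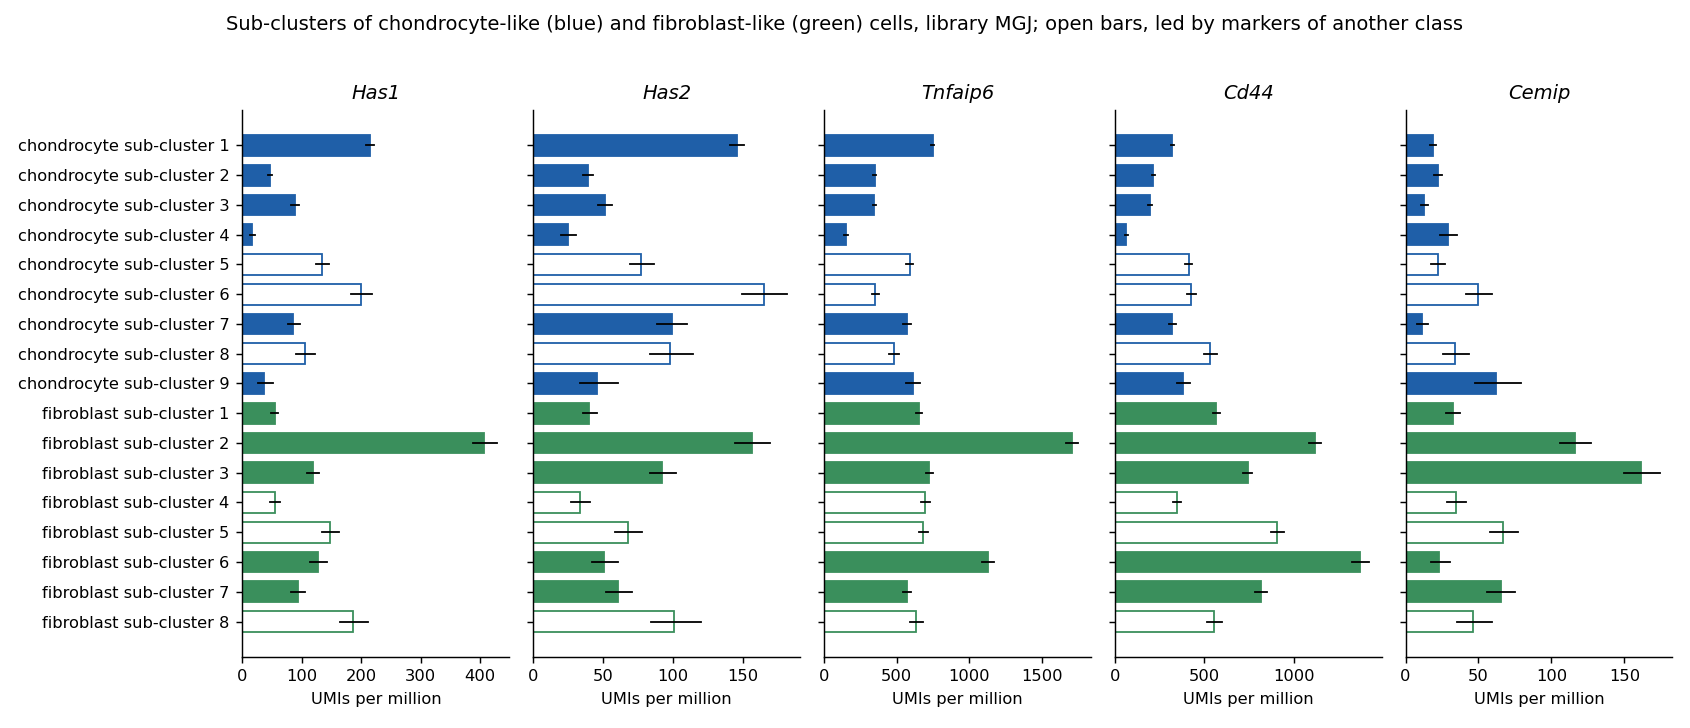
Level (CPM, horizontal axis) of 5 of the genes in chondrocyte sub-clusters (blue bars) and fibroblast sub-clusters (green bars) of MGJ, with 95% Poisson intervals and open bars for sub-clusters led by markers of another class. Has1 is at 215 CPM in chondrocyte sub-cluster 1 and at 407 in fibroblast sub-cluster 2, and Cemip at 162 in fibroblast sub-cluster 3.

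The 34 further hyaluronan genes were listed by role. In chondrocyte-like against other cells of MGJ, 8 of 29 tested were higher and 10 lower, where 13.5% and 26.1% of all genes were, with a median ratio of 1.10 against 0.874 over all genes. In MGJ2, 11 of 25 were higher and 5 lower, where 21% and 27.1% of all genes were, with a median of 1.02 against 0.797. Among the 7 enzymes that supply the UDP-sugars, 3 were higher in MGJ. Ugdh, which makes UDP-glucuronic acid, stood at 2.32 times, Ugp2, which makes UDP-glucose, at 2.67 and Gfpt2, of the hexosamine pathway, at 2.60. In MGJ2, 6 of 7 were higher, among them Gfpt2 at 41.7 times (34.4 to 50.8) and Ugdh at 12.7 (11.7 to 13.7). Their median ratio was 1.95 in MGJ and 4.04 in MGJ2.

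Of the enzymes that degrade the chain or its fragments, Gusb, the lysosomal beta-glucuronidase, was lower in chondrocyte-like cells, at 0.361 times in MGJ and 0.404 in MGJ2. Hexa was lower in MGJ, at 0.470 times. Of the further receptors, the scavenger receptor Stab1 was lower at 0.0950 times in MGJ and 0.0513 in MGJ2, and Lyve1, a receptor of lymphatic endothelium, at 0.0196 in MGJ.

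Single link protein and proteoglycan genes differed between chondrocyte-like and fibroblast-like cells. Hapln1, the cartilage link protein, stood at 4965 CPM in chondrocyte-like and 332 in fibroblast-like cells of MGJ, a ratio of fibroblast over chondrocyte of 0.0668 (0.0654 to 0.0683). Acan, the gene of aggrecan, had a ratio of 0.211 (0.208 to 0.213). Vcan, which encodes versican, was at 411 CPM in fibroblast-like and 9.52 in chondrocyte-like cells, 43.2 times (39.5 to 47.4). Ptx3, which encodes a pentraxin that binds TSG-6, stood at 681 and 73.4 CPM, 9.28 times (8.96 to 9.61), and reached 2620.0 CPM (2569.6 to 2671) in fibroblast sub-cluster 2. In fibroblast-like over chondrocyte-like cells, 6 of 26 tested further genes were higher and 3 lower, near the 21.8% and 11% of all genes, with a median of 1.41 against 1.20. In fibroblast-like over all other cells, 7 of 29 were higher and 6 lower, where 13.3% and 17.2% of all genes were, with a median of 1.08 against 1.05.

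Between Col10a1 stages of MGJ, 9 of 24 tested further genes were lower in high stage, where 10.5% of all genes were, with a median ratio of 0.607 against 0.979 over all genes. Ugdh stood at 0.430 times (0.410 to 0.452) and Gfpt2 at 0.434 (0.403 to 0.467). Ptx3 was at 0.172 (0.147 to 0.200), and Hmmr, a receptor also expressed in dividing cells, at 0.0719 (0.0287 to 0.150). In MGJ2, 4 of 14 were lower, where 10.3% of all genes were, with a median of 0.627 against 0.967. Among them were Gfpt2 at 0.475 (0.374 to 0.600) and Ptx3 at 0.0928 (0.0181 to 0.300). Hapln1 had a ratio of 1.94 in MGJ, short of 2-fold, and of 0.499 (0.478 to 0.520) in MGJ2.

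Has1 and Has2 were the most alike of the members. Over the 17 classes of MGJ and the 14 of MGJ2 that had at least 50 cells, their log2(CPM + 1) had a Pearson r of 0.953 and 0.951. The genes most like Has1 by the lower of the 2 values were Has2, Bicc1 at 0.931 and Gpr153 at 0.920, and for Has2 they were Bicc1 at 0.979, Pdgfrl at 0.954 and Has1. For Cd44 they were Rnf149 at 0.880, Cebpb at 0.828 and Gm41442, for Hyal1 the osteoclast marker Atp6v0d2 at 0.734, Slc37a2 and Tmem268, and for Hyal2 Akr1b8 at 0.881, Fblim1 and Angpt2. Itgbl1 at 0.870, Prrx2 and Bmper were most like Cemip, and Fam114a1 at 0.865, Lgr4 and Ckap4 most like Tnfaip6. Classes of 1 library share depth and free RNA, so these values are descriptions.

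Detection of both synthases in the same cell was counted next. After thinning to 10000 UMIs, Has2 was found in 52.2% (48.6 to 55.7) of 786 chondrocyte-like cells of MGJ with Has1 and in 34.5% (32.0 to 37.1) of 1361 without it. Within sub-cluster 1 the shares were 59.3% (54.9 to 63.5) and 59.7% (54.9 to 64.3). In fibroblast-like cells they were 47.1% (42.9 to 51.4) and 28.8% (25.4 to 32.4). The antisense gene Has2os was itself 3.11 times higher (2.55 to 3.82) in chondrocyte-like than in other cells of MGJ, at 5.78 against 1.86 CPM.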

How the data were processed

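The authors deposited filtered matrices of raw UMI counts for 2 libraries of 10x 3′ v3 single-cell RNA, in which the header names Cell Ranger 4.0.0. The submitters' processing notes also list GRCm38 and Seurat. Library MGJ held 14295 barcodes and 135304426 UMIs (median 5026), and library MGJ2 held 8009 barcodes and 61130834 UMIs (median 4952). No column was left unmapped (0).

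Barcodes with fewer than 200 genes (371 and 70) or more than 20% mitochondrial UMIs (464 and 133) were removed. Scrublet (scanpy 1.11.5), given an assumed doublet rate of 0.8% for every 1000 barcodes, marked 140 (1.04%) and 222 (2.84%), which were dropped, so some doublets may remain. After scaling each cell to 10000 UMIs and taking logs, 2000 variable genes, 30 principal components and 15 neighbours entered Leiden clustering of both libraries together (leidenalg 0.10.2, igraph 0.11.9, resolution 1), which gave 31 clusters. The listed hyaluronan and acute-phase genes, 49 in all, were kept out of clustering. Chondrocyte-like and fibroblast-like clusters were clustered again at resolution 0.5.

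A cluster with 20 or more cells was named after the best of 27 marker lists when its mean log2(CPM + 10) stood at least 1 above the mean over clusters with at least 3 markers detected in at least 10% of cells. Clusters led by markers of other classes (at least 2 of the 10 leading genes and more than their own), or with a median UMI count under that of their library divided by 3 and no own leading marker, stayed unnamed. The same rule set 3 chondrocyte sub-clusters aside. It was applied to the fibroblast sub-clusters only as an alternative.

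Levels were summed UMIs per 1000000 UMIs with exact Poisson 95% intervals, ratios had the exact conditional binomial interval, and shares the exact Clopper-Pearson interval after 1 random thinning. The ratio step was tested on simulated data. Genes named were the 8 members, list genes past 2-fold, Col10a1, Col2a1, markers and leading genes, and the 3 genes most like each member. Some list genes that did not pass are named with their values, chosen after these were seen, and 1 list gene is not reported here. The members and lists were chosen with earlier results of these data known. Alternatives varied the mitochondrial and gene minimums, doublets, clustering resolution, naming by cell, weighting, set-aside sub-clusters, the fold, the UMI minimum, the Col10a1 limits and the thinning depth. Python 3.11.15, numpy 2.4.6, scipy 1.17.1, pandas 2.3.3, scikit-learn 1.9.0, anndata 0.12.19 and matplotlib 3.10.9 were used.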

Additional observations from a re-analysis of the deposited data

Results flagged for a closer look

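Barcodes removed by the filters also held UMIs of the 8 genes, which lie outside the comparisons above and past the limit that a count of 0 allows. In MGJ, the 975 removed barcodes held the 8 genes at 930.3 CPM (95% interval 899 to 962), compared with 1247 in the kept cells. In MGJ2, the 425 removed barcodes held them at 1427 CPM (1385 to 1470.1), compared with 1274 in the kept cells. Of the UMIs of the 8 genes in kept cells, Cd44 held 82186 of 164133 in MGJ and 70195 of 74005 in MGJ2. The pooled level in kept cells of MGJ2 is thus mostly that of Cd44.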

How the results depend on the processing

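No paired analysis was possible because the labels put neither library in a group and give no replicate numbers. No ratio past 2-fold changed direction. Of the recomputed counts of members past 2-fold, 53 stayed within 1.5 times of the reported count and 4 did not. Single ratios stayed within their interval in 213 cases and left it in 105, levels in 51 and 21, and shares in 25 and 47. In fibroblast-like over all other cells of MGJ, the count went from 3 to 5 at clustering resolution 2 and to 5 with every cell weighted equally, since Has1 and Has2 passed in both. Without chondrocyte sub-cluster 1, an alternative added after seeing the data, the count in high over low Col10a1 stage went from 3 to 1 in MGJ (Has1) and from 3 to 5 in MGJ2.

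Has1 and Has2 were lower in high than in low stage in both libraries under every other alternative, with ratios of Has1 from 0.154 to 0.286 in MGJ. Hyal1 (MGJ) was no longer past 2-fold at 10% mitochondrial UMIs, with doublet calls kept, at resolution 2, with cells named one by one and with the set-aside sub-clusters kept. Cemip (MGJ2) was lost at 500 genes, with doublet calls kept, at resolution 2 and with the set-aside sub-clusters kept. In chondrocyte-like over other cells of MGJ2, the ratio of Cemip ran from 7.31 to 178, the highest with the set-aside sub-clusters kept. In chondrocyte-like over other cells of MGJ, the ratio of Has1 ran from 1.87 to 3.71 and that of Cemip from 0.628 to 1.62, and with every cell weighted equally Cemip turned from below to above 1 there, Hyal2 was no longer past 2-fold at 0.550, and Cd44 in fibroblast-like over other cells turned from 1.33 to 0.717. The cause of these changes was not tested. MGJ2 held 51 high-stage cells, and Has3 was too rare in both libraries to be compared.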
